A study of Homo sapiens with 36 samples.

Results

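The genes described here make, sense, move or export cholesterol, and make fatty acids. Of 38 genes named by symbol, 36 had a row in a table of 15186 genes by 36 RNA-seq libraries, and LSS and ACACA were not analysed here. Synthesis genes and genes of efflux through the liver X receptors (LXR) are reported apart. The synthesis set named 30 genes, of which 28 had a row: 7 of the mevalonate arm, 10 of the steps from squalene to cholesterol, 5 that control the sterol regulatory element binding proteins (SREBP), and 6 that make fatty acids. There were also 3 sterol transport genes and 5 genes of LXR and efflux. All 36 members passed the filter on low counts.

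Cells build cholesterol from acetyl-CoA through mevalonate, isoprenoids and squalene. When membrane sterol is low, SCAP carries the SREBP precursors from the endoplasmic reticulum to the Golgi for cleavage, and the released factors switch on synthesis genes, while INSIG proteins hold SCAP back when sterol is plentiful. Oxysterols activate the LXR nuclear receptors, which raise the transporters that export cholesterol.

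U2OS is a human osteosarcoma cell line, and the cells used carried a stably transfected glucocorticoid receptor alpha. Every group shared that transgene, a low-glucose medium with 5% serum and a transfection. There were 6 siRNA conditions: a control siRNA (siNSsiNS), 3 single conditions whose labels name the target (siHic5siNS, siCHD9siNS and siBRMsiNS), and the double conditions siCHD9siHic5 and siBRMsiHic5. From 48 h after transfection each was given 100 nM dexamethasone (dex), a synthetic glucocorticoid, or ethanol vehicle for 8 h, in 3 replicates each, which makes 12 groups. Replicates were done on different days, per the labels, and their numbers 1 to 3 name the libraries below, though no label says that libraries of 1 number share a day. The study asked, per its design text, how removing CHD9 or BRM, which are chromatin remodelers, acts when the coregulator Hic-5 is removed too. Whether the transfected line was 1 clone or a pool was not stated in the sources used here.

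Libraries held 27.4 to 47.1 M counts. Levels are given as CPM, which are counts scaled to a common library size, here with upper-quartile factors. They are not scaled by gene length, so levels are compared between groups for 1 gene and not between genes. RNA28S5, the 28S ribosomal RNA, took 0.324 to 7.51% of counts, with 1.92 to 7.51% in the siBRM libraries numbered 2 and 3, 5.46% in siNSsiNS vehicle library 3, 3.44 and 6.04% in siHic5siNS vehicle and dex library 3, and 0.868% at most in the siCHD9 libraries. In vehicle, the Hic-5 gene TGFB1I1 measured 27.9, 29.3 and 28.1 CPM with siNSsiNS and 5.27, 11.2 and 4.74 CPM with siHic5siNS, or 24.8% of control (adjusted p = 1.47e-07). It stood at 26.2% with siCHD9siHic5 and 18.3% with siBRMsiHic5, and the BRM gene SMARCA2 stood at 28.9% with siBRMsiNS and 24.9% with siBRMsiHic5. CHD9 measured 96.6, 78.1 and 91.1 CPM with siNSsiNS, 59.5, 51.5 and 69.4 CPM with siCHD9siNS (67.9% of control, adjusted p = 0.0194), and 143, 110 and 116 CPM in the libraries labelled siCHD9siHic5 (139%, adjusted p = 0.0292). The last goes against the label, so directions for libraries labelled siCHD9siHic5 rest on a label that CHD9 mRNA does not bear out. The sequences of the siRNAs were not used here. CHD9 also fell, to 51.1%, with siBRMsiHic5 (adjusted p = 0.000107). Of 8 mesenchymal markers 6 had a row, among them RUNX2 at 13.0 to 63.7 CPM, VIM at 991 to 2106 CPM and SPARC at 1187 to 3132 CPM, and COL1A2 and TWIST1 had none. Of the epithelial markers, EPCAM measured 1.69 to 4.84 CPM and CDH1 0.222 to 1.90 CPM, while CLDN4 measured 8.49 to 55.9 CPM and KRT18 103 to 455 CPM. Markers of blood cells, hepatocytes and adipocytes had 0 of 3 rows each.

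Promoters are printed for 5 members whose levels carry the results below: SREBF2 and INSIG1, which control the pathway, HMGCS1 and IDI1 of the mevalonate arm, and MSMO1. With siHic5siNS, MSMO1 moved against the other members printed, but not in every condition. Each line is the 200 bases before a RefSeq start (GRCh38.p14), 5′ to 3′ on the gene's strand. Capitals mark an SREBP site (ATCAC followed by CCCAC), an E-box (CACGTG) or a CCAAT box, the NF-Y motif, which reads ATTGG on the other strand.
SREBF2 (chr22:41832905-41833104, plus strand): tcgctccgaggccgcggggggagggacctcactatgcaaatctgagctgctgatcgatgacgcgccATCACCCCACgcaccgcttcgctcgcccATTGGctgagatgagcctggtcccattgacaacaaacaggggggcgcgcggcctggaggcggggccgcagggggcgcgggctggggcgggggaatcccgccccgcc
INSIG1 (chr7:155297678-155297877, plus strand): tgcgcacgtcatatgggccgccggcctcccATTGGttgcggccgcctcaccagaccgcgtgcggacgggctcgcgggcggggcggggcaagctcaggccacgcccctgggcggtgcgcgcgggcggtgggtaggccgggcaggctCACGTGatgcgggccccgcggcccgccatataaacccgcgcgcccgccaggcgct
HMGCS1 (chr5:43313413-43313612, minus strand): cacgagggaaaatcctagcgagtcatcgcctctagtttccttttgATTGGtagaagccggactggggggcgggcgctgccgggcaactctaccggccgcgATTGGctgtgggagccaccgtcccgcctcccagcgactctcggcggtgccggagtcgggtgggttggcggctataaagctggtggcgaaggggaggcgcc
MSMO1 (chr4:165327469-165327668, plus strand): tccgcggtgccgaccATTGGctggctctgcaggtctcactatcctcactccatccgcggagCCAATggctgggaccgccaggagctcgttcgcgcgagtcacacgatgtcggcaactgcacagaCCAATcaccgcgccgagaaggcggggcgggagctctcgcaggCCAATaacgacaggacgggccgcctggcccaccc
IDI1 (chr10:1048887-1049086, minus strand): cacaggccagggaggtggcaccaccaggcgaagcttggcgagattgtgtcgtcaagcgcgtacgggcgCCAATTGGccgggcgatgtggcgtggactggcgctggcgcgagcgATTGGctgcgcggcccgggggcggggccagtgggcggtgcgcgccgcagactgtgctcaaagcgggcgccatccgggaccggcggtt

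CCAAT occurred 1 time in the SREBF2 and INSIG1 stretches, 2 times in HMGCS1, 3 times in IDI1 and 4 times in MSMO1. IDI1 and HMGCS1 have further RefSeq starts, whose stretches are not printed. The window at the outer end of IDI1 (chr10:1056704) held no CCAAT, so the IDI1 count holds for the printed start. The capitals CCAATTGG in IDI1 are 2 overlapping matches on opposite strands. The RefSeq table matched 31 of 36 members, with 43 windows of 300 bases from 250 before to 50 after a start. Exact matches on both strands were counted there and in all 35116 windows. The SREBP site was in 1 member window, that of SREBF2 (2.33%), against 0.0456% of all windows, and its core TCACNCCAC, which overlaps it, was also in 1, against 1.13%. CCAAT was in 24 member windows, 55.8%, against 34.6% of all windows, and the GC box GGGCGG in 38, 88.4%, against 45.0%. CACGTG was in 5, 11.6%, against 7.26%. The LXR motif (AGGTCA, a spacer of 4 bases, then AGGTCA) and the glucocorticoid receptor motif (AGAACA, a spacer of 3 bases, then TGTTCT) were in 0 member windows, against 0.0199% and 0.00285% of all windows. These counts describe letters in a short window, and no windows were tested against each other.

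Across the 12 groups the efflux transporters spanned the widest ranges. The ratio of the highest to the lowest group mean was 30.7 for ABCG1 and 12.4 for ABCA1, both LXR targets that export cholesterol. Among synthesis genes it was 6.26 for INSIG1, 5.57 for IDI1, 3.46 for MSMO1, 3.41 for PMVK and 2.98 for CYP51A1. FDFT1, squalene synthase, had the lowest ratio of the members, 1.43. The map of all 36 members by library shows where these ranges come from.

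**Figure D1:**
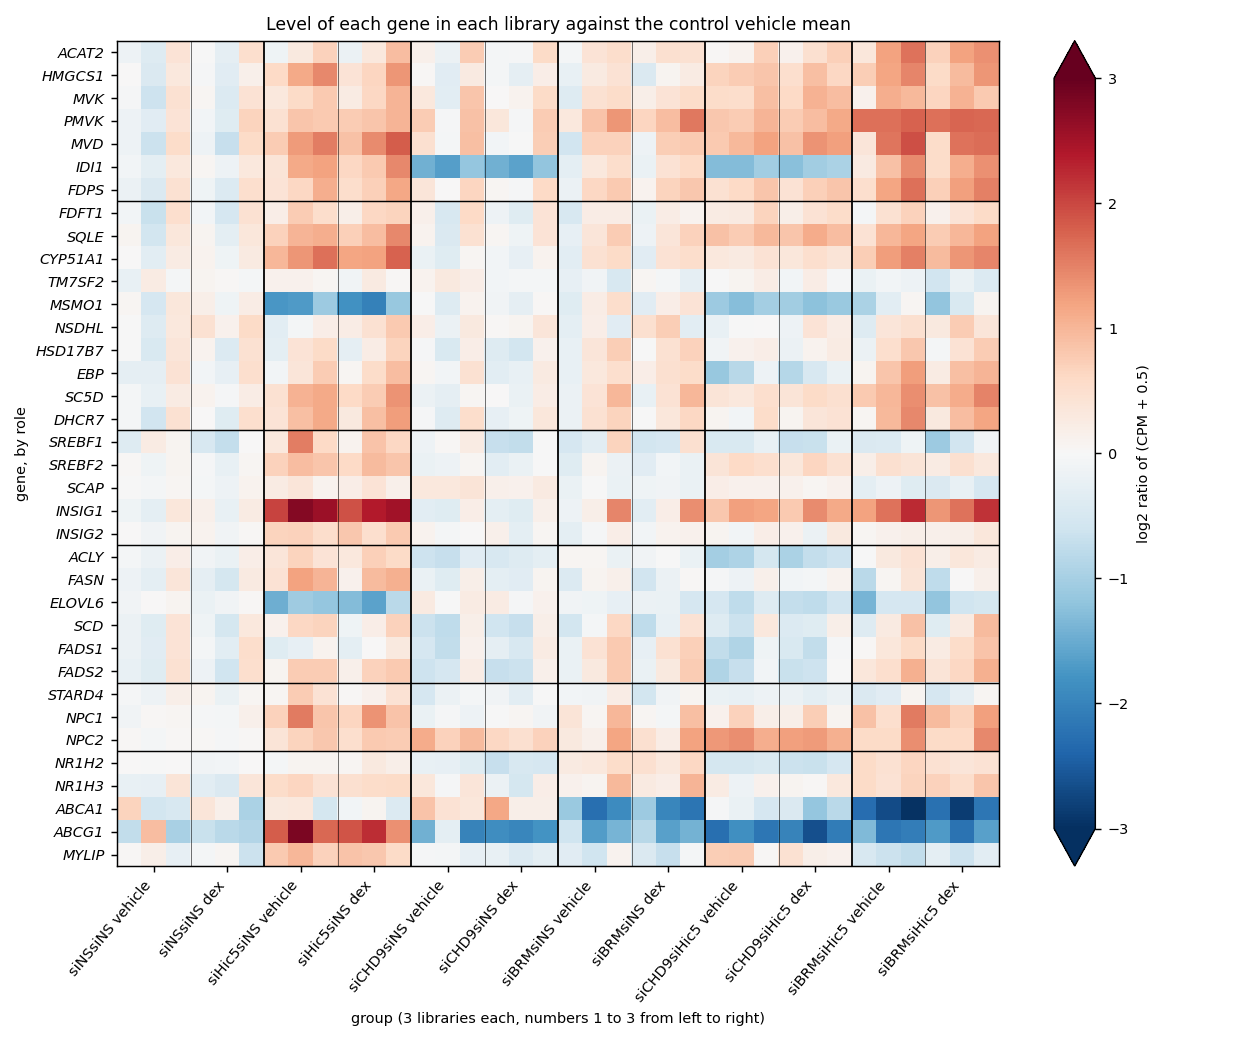
Log2 ratio of each member's CPM + 0.5 to the mean of the siNSsiNS vehicle libraries, for 36 members (rows, by role) and 36 libraries (columns, by group and number). INSIG1 is above the control mean in every siHic5siNS, siCHD9siHic5 and siBRMsiHic5 library, MSMO1 and ELOVL6 are below it with siHic5siNS, and ABCG1 is above it with siHic5siNS and below it in both double conditions.

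With siHic5siNS in vehicle, most of the cholesterol pathway stood above siNSsiNS, but MSMO1 and ELOVL6 stood below. An adjusted p under 0.05 in the edgeR quasi-likelihood test was reached upward by 16 of 28 synthesis genes and downward by 2. In the same comparison 53.1% of 15179 genes were called, 26.0% up and 27.2% down, so a call in itself is common here. Overlap of groups is described below gene by gene. The share of all genes whose groups did not overlap is not given, for this or any later comparison. The median log2 change was 0.61 over the synthesis genes and -0.01 over all genes.

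All 5 SREBP control genes rose. INSIG1, which retains SCAP in the endoplasmic reticulum and is itself an SREBP target, measured 48.1, 42.8 and 65.8 CPM with siNSsiNS (52.2 ± 12.1, SD, n = 3) and 213, 355 and 313 CPM with siHic5siNS (294 ± 72.9, SD, n = 3). Every siHic5siNS library was above every control library, a log2 change of 2.49 ± 0.39 (SE), or 5.62-fold (adjusted p = 5.83e-06). Its paralog INSIG2, which does the same task, measured 24.3, 22.1 and 25.5 CPM and then 38.6, 39.3 and 34.7 CPM. The groups of INSIG2 did not overlap either, and the change was 1.57-fold (adjusted p = 0.000186). SREBF2, which encodes the SREBP that drives sterol genes, measured 425, 379 and 436 CPM with siNSsiNS and 673, 790 and 741 CPM with siHic5siNS. The replicates of SREBF2 lay close together and its 1.78-fold change had the smallest adjusted p of the members in this comparison, 2.92e-06. SREBF1, which encodes the SREBP more tied to fatty acid genes, measured 60.1, 93.8 and 83.8 CPM and then 98.5, 230 and 120 CPM, so its 1.88-fold change rested mostly on siHic5siNS library 2 (adjusted p = 0.0198, and 0.257 at a log2 change of 0.46 without that library, or 0.0948 at 0.75 without siNSsiNS library 1). SCAP, the SREBP escort, had a log2 change of 0.24 (adjusted p = 0.0296), and its call was lost without siNSsiNS library 1 or 2 or siHic5siNS library 1 or 2 (0.17 to 0.24, adjusted p = 0.0596 to 0.164).

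In the mevalonate arm 5 of 7 genes rose. HMGCS1, the cytosolic HMG-CoA synthase, measured 471, 348 and 585 CPM with siNSsiNS (468 ± 119, SD, n = 3) and 703, 1032 and 1262 CPM with siHic5siNS (999 ± 281, SD, n = 3). All siHic5siNS libraries were higher, 2.14-fold (log2 change 1.09 ± 0.26 SE, adjusted p = 0.000826). IDI1, which isomerises isopentenyl diphosphate, measured 53.4, 46.6 and 70.2 CPM and then 74.4, 125 and 132 CPM (log2 change 0.96, adjusted p = 0.0047). The groups of IDI1 came close to each other at siHic5siNS library 1 without overlapping. MVD, which decarboxylates mevalonate diphosphate, changed by 1.23 (adjusted p = 0.0131), PMVK, the phosphomevalonate kinase, by 0.73 (0.0302), and FDPS, the farnesyl diphosphate synthase, by 0.74 (0.0394). These 3 calls depended on single libraries. PMVK and FDPS lost theirs without siNSsiNS library 1 or 2 or siHic5siNS library 2 or 3 (PMVK 0.58 to 0.69, adjusted p = 0.0737 to 0.134, and FDPS 0.52 to 0.80, 0.0524 to 0.191). MVD lost its call without siNSsiNS library 2 (0.99, adjusted p = 0.0777) or siHic5siNS library 3 (1.05, 0.0527). FDPS has pseudogene copies, and no source used here says how reads shared with them were counted. ACAT2, which makes acetoacetyl-CoA, and MVK, the mevalonate kinase, were not called (log2 changes 0.32 and 0.58, adjusted p = 0.402 and 0.102).

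From squalene to cholesterol 4 of 10 genes rose and 1 fell. CYP51A1, the lanosterol demethylase, measured 186, 147 and 219 CPM with siNSsiNS and 371, 466 and 577 CPM with siHic5siNS, which is 2.56-fold with no overlap (adjusted p = 2.5e-05). SQLE, the squalene epoxidase, measured 357, 230 and 431 CPM and then 545, 694 and 728 CPM (log2 change 0.95, adjusted p = 0.00386). MSMO1, the methylsterol monooxygenase that acts after CYP51A1, went the other way, from 223, 152 and 272 CPM to 64.4, 66.4 and 101 CPM. The MSMO1 groups did not overlap, and siHic5siNS stood at 35.8% of control (log2 change -1.48 ± 0.29 SE, adjusted p = 0.000112). SC5D, the lathosterol desaturase, and DHCR7, which reduces the sterol ring in the last step, also rose (log2 changes 0.91 and 0.84, adjusted p = 0.00424 and 0.0325), with overlapping DHCR7 groups. The DHCR7 call was lost without siNSsiNS library 1 or 2 or siHic5siNS library 2 or 3 (0.62 to 0.81, adjusted p = 0.07 to 0.161). FDFT1, TM7SF2, NSDHL, HSD17B7 and EBP were not called, with log2 changes from -0.05 for NSDHL to 0.51 for FDFT1.

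Among the fatty acid genes 2 of 6 rose and 1 fell. FASN, the fatty acid synthase, measured 836, 768 and 1199 CPM with siNSsiNS and 1257, 2143 and 1897 CPM with siHic5siNS (log2 change 0.92, adjusted p = 0.00793). ACLY, which supplies cytosolic acetyl-CoA, measured 530, 488 and 633 CPM and then 703, 880 and 737 CPM (0.49, adjusted p = 0.0055). ELOVL6, which lengthens saturated and monounsaturated fatty acids, fell from 57.3, 63.0 and 65.7 CPM to 22.3, 29.5 and 27.2 CPM, or 42.5% of control (adjusted p = 9.18e-06). The 3 ELOVL6 libraries of each group lay close together and far from the other group. The desaturases SCD, FADS1 and FADS2 were not called (log2 changes 0.50, -0.16 and 0.56, adjusted p = 0.278, 0.674 and 0.157). In bulk RNA, a change in the share of cells and a change in RNA per cell cannot be told apart.

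**Figure D2:**
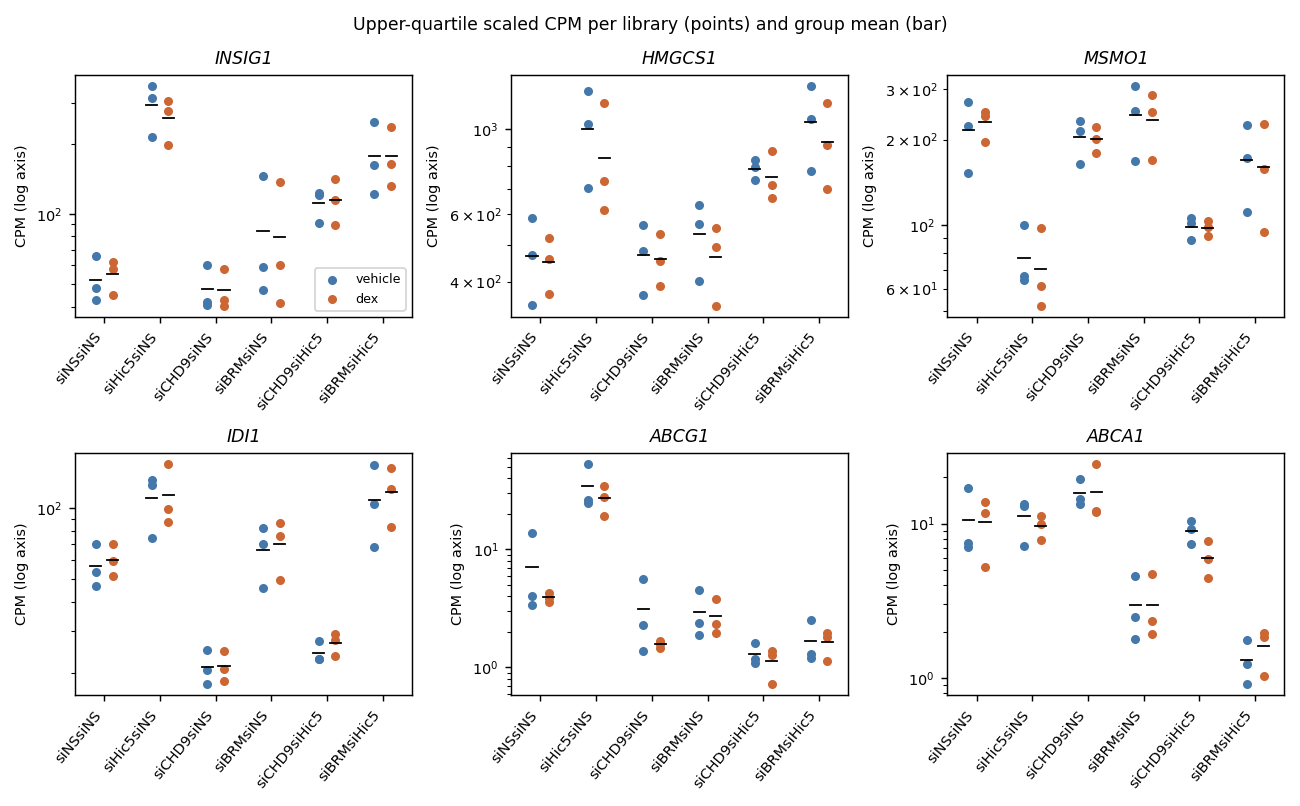
CPM (log axis) of INSIG1, HMGCS1, MSMO1, IDI1, ABCG1 and ABCA1 in each of 36 libraries, by group, with bars at the group means. INSIG1 is highest with siHic5siNS (mean 294 in vehicle), IDI1 is lowest with siCHD9siNS (21.1) and siCHD9siHic5 (24.3), and ABCA1 is lowest with siBRMsiHic5 (1.30).

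Of the 18 synthesis genes called with siHic5siNS, 12 kept their call when any single library was left out. The 3 numbers differed in size: the median difference over the synthesis genes was 0.44 for number 1, 1.09 for number 2 and 0.37 for number 3, and 23, 25 and 24 of 28 genes were positive. Without all libraries numbered 3, the count was 19 up and 2 down, which held all 18 genes and added FADS2, FDFT1 and SCD. The share of all genes called in that refit is not given here.

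All 3 sterol transport genes rose with siHic5siNS. NPC1, the late endosomal sterol transporter, measured 69.5, 75.9 and 78.2 CPM with siNSsiNS and 120, 221 and 133 CPM with siHic5siNS (log2 change 1.08, adjusted p = 0.0017). NPC2, its soluble lumenal partner, measured 142, 135 and 142 CPM and then 184, 222 and 244 CPM (0.63, adjusted p = 0.0351). STARD4, a cytosolic sterol carrier, measured 142, 131 and 166 CPM and then 154, 248 and 198 CPM (0.45, adjusted p = 0.0309), and its groups overlapped. The NPC1 and NPC2 groups did not overlap. NPC2 lost its call without siNSsiNS library 1, 2 or 3 or siHic5siNS library 2 or 3 (0.54 to 0.65, adjusted p = 0.0666 to 0.111), and STARD4 without siNSsiNS library 1 or 2 or siHic5siNS library 2 or 3 (0.27 to 0.46, 0.0547 to 0.241).

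Of the 5 LXR and efflux genes, 2 rose with siHic5siNS. ABCG1 (21q, GRCh38.p14 chr21:42199689-42297244) measured 4.04, 13.9 and 3.39 CPM with siNSsiNS (7.10 ± 5.87, SD, n = 3) and 26.1, 53.2 and 24.6 CPM with siHic5siNS (34.6 ± 16.1, SD, n = 3). Library 2 was the highest of its group in both, the groups did not overlap, and the change was 4.89-fold (log2 change 2.29 ± 0.47 SE, adjusted p = 0.000185). Without siNSsiNS library 2 it was 9.32-fold (adjusted p = 9.88e-06). MYLIP, an LXR-induced ubiquitin ligase, measured 13.7, 15.1 and 11.2 CPM and then 23.4, 27.2 and 21.8 CPM, 1.81-fold with no overlap (adjusted p = 0.000906). ABCA1 (chr9:104781006-104928155), another LXR target, showed no such change: 17.1, 7.10 and 7.45 CPM against 13.0, 13.3 and 7.13 CPM, with overlapping groups (log2 change 0.08 ± 0.40 SE, adjusted p = 0.881). The receptor genes NR1H2 (LXR beta) and NR1H3 (LXR alpha) were not called (log2 changes 0.04 and 0.58, adjusted p = 0.7 and 0.0601).

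With siCHD9siNS alone, few members differed from siNSsiNS in vehicle. Of the synthesis genes 1 rose and 2 fell, where 32.3% of all genes were called (15.8% up, 16.5% down), and the median log2 change was 0.04 (0.02 over all genes). IDI1 fell from 53.4, 46.6 and 70.2 CPM to 20.5, 17.8 and 24.9 CPM, or 37.2% of control (log2 change -1.43 ± 0.28 SE, adjusted p = 0.000356). All siCHD9siNS libraries were below all controls. ACLY fell from 530, 488 and 633 CPM to 360, 343 and 434 CPM, 68.9% of control with no overlap (adjusted p = 0.00541). SCAP rose slightly, from 86.0, 82.3 and 90.2 CPM to 107, 108 and 114 CPM (adjusted p = 0.00487), and NPC2 rose from 142, 135 and 142 CPM to 302, 227 and 271 CPM, 1.91-fold (adjusted p = 0.00573). NR1H2 stood at 44.8, 44.6 and 40.7 CPM against 52.9, 52.1 and 52.7 CPM, 82.4% of control (adjusted p = 0.0196). The NR1H2 call was lost without siNSsiNS library 1 (-0.27, adjusted p = 0.0534) or siCHD9siNS library 3 (-0.24, 0.0925). With a term for the replicate number, fitted over all 36 libraries, PMVK (0.63, adjusted p = 0.0173) and ABCG1 (-1.19, 0.0345) were called too. That fit called 38.1% of all genes in this comparison. INSIG1 and HMGCS1 were not called (-0.14 and 0.01, adjusted p = 0.81 and 0.989).

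With siBRMsiNS alone, 6.45% of all genes were called in vehicle (4.26% up, 2.19% down), and among the members PMVK and NR1H2 were higher and ABCA1 lower than control. ABCA1 measured 17.1, 7.10 and 7.45 CPM with siNSsiNS and 4.59, 1.80 and 2.50 CPM with siBRMsiNS, or 27.9% of control with no overlap (log2 change -1.84 ± 0.42 SE, adjusted p = 0.0168). NR1H2 rose from 52.9, 52.1 and 52.7 CPM to 63.7, 66.0 and 76.9 CPM (0.39, adjusted p = 0.018). PMVK measured 7.38, 6.44 and 11.1 CPM against 10.5, 15.4 and 21.7 CPM, with overlap (0.93, adjusted p = 0.0454). None of these 3 calls held without all libraries numbered 3 (-1.93, 0.30 and 0.91 on the log2 scale). Single libraries also ended them: for ABCA1 siNSsiNS library 1 (-1.30, adjusted p = 0.138) or siBRMsiNS library 3 (-1.73, 0.151), for NR1H2 siNSsiNS library 1 (0.39, 0.0938) or 2 (0.38, 0.0879) or siBRMsiNS library 3 (0.30, 0.196), and for PMVK siNSsiNS library 1 or 2 or siBRMsiNS library 2 or 3 (0.64 to 0.96, 0.0596 to 0.386). INSIG1 was uneven, at 47.3, 59.1 and 145 CPM, and was not called (adjusted p = 0.239). The median synthesis difference was -0.20, 0.64 and 0.17 for numbers 1, 2 and 3, with 6, 25 and 20 of 28 genes positive. The siBRM libraries numbered 2 and 3 were also those rich in 28S RNA, and its part in these values was not tested.

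In the libraries labelled siCHD9siHic5, 6 synthesis genes rose and 4 fell against siNSsiNS in vehicle, where 52.6% of all genes were called (23.7% up, 28.9% down). The median was 0.13 (-0.05 over all genes). INSIG1 measured 91.7, 123 and 120 CPM against 48.1, 42.8 and 65.8 CPM, 2.13-fold with no overlap (adjusted p = 0.0148, and 0.0645 at a log2 change of 0.97 without siNSsiNS library 2). HMGCS1 measured 739, 796 and 833 CPM against 471, 348 and 585 CPM (0.75, adjusted p = 0.015, and 0.0948 at 0.58 without the same control library). SREBF2 measured 543, 625 and 582 CPM against 425, 379 and 436 CPM (0.50, adjusted p = 0.00117). SQLE, PMVK and MVD also rose (0.86, 0.90 and 1.01, adjusted p = 0.00779, 0.00875 and 0.0386). Without siNSsiNS library 2, SQLE was at 0.65 (adjusted p = 0.066) and PMVK at 0.75 (0.0552), and MVD lost its call without siNSsiNS library 1 or 2 or siCHD9siHic5 library 2 or 3 (0.77 to 1.03, 0.0653 to 0.169).

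The 4 synthesis genes that fell there were IDI1, ACLY, MSMO1 and ELOVL6. IDI1 measured 22.8, 22.8 and 27.3 CPM, 42.8% of control (adjusted p = 0.000595), beside 20.5, 17.8 and 24.9 CPM with siCHD9siNS alone. ACLY measured 270, 289 and 382 CPM, 57.0% of control (adjusted p = 3.63e-05), and MSMO1 102, 89.1 and 106 CPM, 45.9% (0.00171). ELOVL6 measured 43.3, 36.1 and 47.1 CPM (-0.56, adjusted p = 0.0176, and 0.0868 at -0.46 without siCHD9siHic5 library 2 or 0.0522 at -0.51 without siNSsiNS library 3). None of these 4 overlapped its control. The share of all genes without overlap is not given here, so this is not a result about the members. With the replicate term over all 36 libraries, which called 57.3% of all genes, the count of synthesis genes was 16. That fit added MVK, FDPS and SC5D above control (0.70, 0.67 and 0.42, adjusted p = 0.0109, 0.00163 and 0.0405) and EBP, FADS1 and FADS2 below it (-0.69, -0.55 and -0.53, adjusted p = 0.000305, 0.0028 and 0.00353). Of these, EBP, FDPS and MVK were also called without the libraries numbered 3.

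Among transport and efflux genes, NPC2 rose to 343, 367 and 296 CPM in the libraries labelled siCHD9siHic5, 2.40-fold (adjusted p = 0.000149). ABCG1 measured 1.10, 1.62 and 1.19 CPM against 4.04, 13.9 and 3.39 CPM, so all 3 lay below every control, at 18.3% (log2 change -2.45 ± 0.50 SE, adjusted p = 0.000178), or 35.0% without siNSsiNS library 2 (0.00895). NR1H2 fell to 36.1, 36.5 and 38.1 CPM (-0.51, adjusted p = 3.44e-05). MYLIP rose by 0.56 (adjusted p = 0.0222) with overlapping groups, and the call was lost without siCHD9siHic5 library 1 or 2 or siNSsiNS library 3 (0.44 to 0.45, 0.102 to 0.11). ABCA1 was not called (-0.24, adjusted p = 0.637).

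With siBRMsiHic5, 14 synthesis genes rose and 2 fell against siNSsiNS in vehicle, where 48.9% of all genes were called (24.4% up, 24.6% down), and the median was 0.56 (-0.01 over all genes). All 7 mevalonate genes and 5 of the squalene to cholesterol genes rose. INSIG1 measured 122, 161 and 248 CPM, 3.39-fold over control (adjusted p = 0.000393). PMVK measured 27.4, 27.3 and 29.3 CPM against 7.38, 6.44 and 11.1 CPM, 3.36-fold with very even replicates (log2 change 1.75, adjusted p = 2.05e-05). HMGCS1 measured 777, 1065 and 1301 CPM (1.16, adjusted p = 0.000583) and CYP51A1 310, 440 and 524 CPM (1.20, 0.000142). The groups of INSIG1, PMVK, HMGCS1 and CYP51A1 did not overlap. SC5D, FDPS, ACAT2, MVD, SQLE, IDI1, DHCR7, MVK and EBP rose by 0.80 to 1.45 on the log2 scale, but ACAT2, MVD, IDI1, DHCR7, MVK and EBP had overlapping groups. Among these, DHCR7 lost its call without siNSsiNS library 1 or 2 or siBRMsiHic5 library 3 (0.58 to 0.90, adjusted p = 0.0617 to 0.183), and MVK and EBP without siNSsiNS library 1 or 2 or siBRMsiHic5 library 2 or 3 (MVK 0.56 to 0.78, 0.0725 to 0.164, and EBP 0.51 to 0.79, 0.0641 to 0.22). IDI1 lost its call without siBRMsiHic5 library 3 (0.61, adjusted p = 0.0881) and SQLE without siNSsiNS library 2 (0.70, 0.053).

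SREBF2 rose by 0.35 with siBRMsiHic5 (adjusted p = 0.0183) and SCAP fell (-0.27, 0.0147), and both calls were lost without the libraries numbered 3. SREBF2 also lost its call without siNSsiNS library 2 (0.29, adjusted p = 0.0882) or siBRMsiHic5 library 2 (0.28, 0.0905), and SCAP without siNSsiNS library 3 (-0.24, 0.0559) or siBRMsiHic5 library 3 (-0.23, 0.0774). ELOVL6 fell to 23.3, 43.6 and 43.3 CPM (-0.75, adjusted p = 0.00233). MSMO1, at 112, 172 and 224 CPM, and SREBF1, at 58.4, 59.1 and 72.0 CPM, were not called. FASN was spread from 532 to 1227 CPM and was not called either (-0.04, adjusted p = 0.926). The synthesis median was 0.15, 1.04 and 0.48 for numbers 1, 2 and 3.

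Efflux genes fell with siBRMsiHic5. ABCA1 measured 1.77, 1.23 and 0.911 CPM against 17.1, 7.10 and 7.45 CPM, 12.2% of control (log2 change -3.04 ± 0.45 SE, adjusted p = 6.26e-06). ABCG1 measured 2.51, 1.20 and 1.31 CPM against 4.04, 13.9 and 3.39 CPM, 23.3% of control (-2.10, adjusted p = 0.000971), or 44.4% without siNSsiNS library 2 (0.0428). MYLIP measured 9.46, 8.30 and 7.73 CPM (-0.65, adjusted p = 0.0104, and 0.0525 at -0.55 without siNSsiNS library 2). For ABCA1, ABCG1 and MYLIP every siBRMsiHic5 library was below every control library. NR1H2 went up, to 78.3, 72.8 and 83.0 CPM (0.57, adjusted p = 1.45e-05). Transport genes NPC1 and NPC2 rose (1.05 and 0.91, adjusted p = 0.00272 and 0.00418), NPC2 to 210, 207 and 369 CPM, and its call was lost without siBRMsiHic5 library 3 (0.58, adjusted p = 0.0708).

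**Figure D3:**
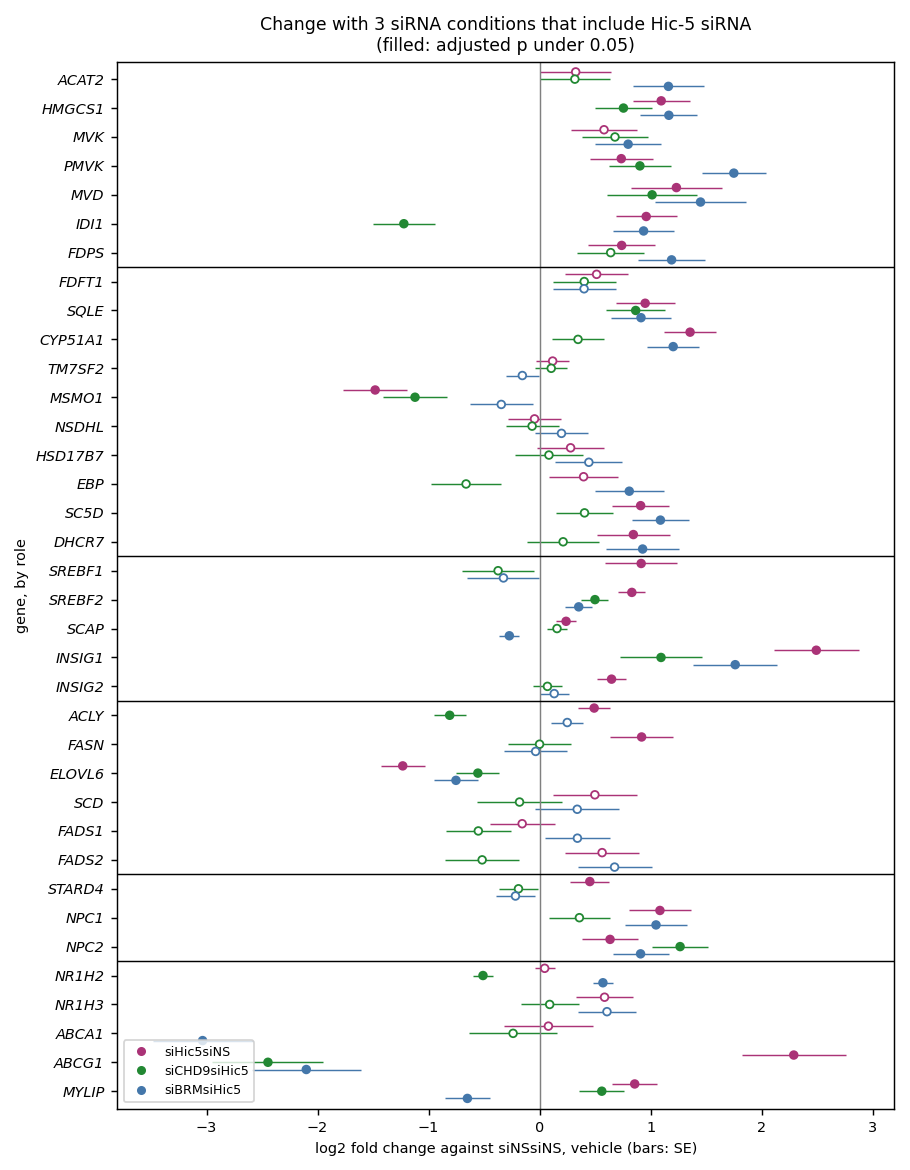
Log2 change against siNSsiNS in vehicle with its SE for 36 members, with siHic5siNS, siCHD9siHic5 and siBRMsiHic5 as separate colours. Filled points passed an adjusted p of 0.05: INSIG1 is filled in all 3 (2.49, 1.09 and 1.76), and ABCG1 is filled on opposite sides (2.29, -2.45 and -2.10). The 3 comparisons share the control libraries.

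Set against siHic5siNS itself, adding the second siRNA changed ABCG1 the most of the members. In the libraries labelled siCHD9siHic5, ABCG1 was at 3.75% of its siHic5siNS level (log2 change -4.74 ± 0.53 SE, adjusted p = 4.18e-08), from 26.1, 53.2 and 24.6 CPM to 1.10, 1.62 and 1.19 CPM. With siBRMsiHic5 it was at 4.77% (-4.39, adjusted p = 1.39e-07). No library of either double condition came near the siHic5siNS range. With siBRMsiHic5, ABCA1 fell to 11.5% (-3.11, adjusted p = 2.62e-06) and MYLIP to 35.2% (-1.51, 1.24e-06), and neither was called in the libraries labelled siCHD9siHic5. The difference between the double conditions was not tested.

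For libraries labelled siCHD9siHic5 against siHic5siNS, 1 synthesis gene rose and 10 fell, where 47.7% of all genes were called (21.9% up, 25.7% down, median -0.34, and -0.04 over all genes). IDI1 went from 74.4, 125 and 132 CPM to 22.8, 22.8 and 27.3 CPM, 22.0% (-2.18, adjusted p = 5.18e-07), and ACLY from 703, 880 and 737 CPM to 270, 289 and 382 CPM, 40.6% (-1.30, 4.2e-08). SREBF1 was back from 98.5, 230 and 120 CPM to 58.0, 57.3 and 68.0 CPM (-1.29, adjusted p = 0.00193), and INSIG1 from 213, 355 and 313 CPM to 91.7, 123 and 120 CPM (-1.40, 0.00272). Neither pair of groups overlapped. CYP51A1, INSIG2, EBP, FASN, FADS2 and SREBF2 also fell, by 0.33 (SREBF2) to 1.08 (FADS2) on the log2 scale, and ELOVL6 rose by 0.68 (adjusted p = 0.00542). SREBF2 lost its call without siCHD9siHic5 library 1 or 3 or siHic5siNS library 2 or 3 (-0.33 to -0.28, adjusted p = 0.0561 to 0.103), FADS2 without siCHD9siHic5 library 1 (-0.92, 0.0548) and FASN without siHic5siNS library 2 (-0.76, 0.0512). Outside synthesis, STARD4 fell by 0.64, NPC1 by 0.73 (adjusted p = 0.00338 and 0.0303) and NR1H2 by 0.56 (1.32e-05) on the log2 scale, and NPC2 rose by 0.63 (0.0395). NPC1 overlapped and lost its call without siCHD9siHic5 library 1 or 3 or siHic5siNS library 2 (-0.64 to -0.40, adjusted p = 0.0988 to 0.266), and NPC2 without siHic5siNS library 1 or 2 or siCHD9siHic5 library 1 or 2 (0.53 to 0.65, 0.0732 to 0.138). With the replicate term, which called 52.7% of all genes, SC5D, DHCR7, SCD, FADS1 and NR1H3 were lower too (-0.48, -0.62, -0.73, -0.42 and -0.52).

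For siBRMsiHic5 against siHic5siNS, 4 synthesis genes rose and 5 fell, where 49.4% of all genes were called (25.2% up, 24.2% down, median 0.08, and 0.02 over all genes). MSMO1 went from 64.4, 66.4 and 101 CPM up to 112, 172 and 224 CPM (1.14, adjusted p = 0.00177), and PMVK rose by 1.01 (0.00366). SREBF1, SREBF2, SCAP, INSIG2 and FASN fell, by 1.24, 0.48, 0.51, 0.52 and 0.95 on the log2 scale (adjusted p = 0.00263, 0.00189, 4.39e-05, 0.00189 and 0.00658). SREBF1 and FASN lost their calls without siHic5siNS library 2 (-0.79, adjusted p = 0.0554) and siBRMsiHic5 library 1 (-0.68, 0.0591). ACAT2 and ELOVL6 rose (0.83 and 0.48, adjusted p = 0.0306 and 0.0427) with overlapping groups. Both of these calls depended on single libraries: siHic5siNS library 1 or 2 or siBRMsiHic5 library 2 or 3 for ACAT2 (0.52 to 0.82, adjusted p = 0.0655 to 0.217), and siHic5siNS library 1 or 3 or siBRMsiHic5 library 2 or 3 for ELOVL6 (0.34 to 0.50, 0.0676 to 0.203). STARD4 fell (-0.67, adjusted p = 0.00236) and NR1H2 rose by 0.53 (2.82e-05). INSIG1 was not called (-0.73, adjusted p = 0.0988).

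Whether a second siRNA acted differently with and without siHic5 was tested as an interaction in vehicle. For siCHD9, 5 synthesis genes were called, where 21.3% of all genes were (11.9% downward), each with a lower value when siHic5 was present: SREBF1 (-1.34), EBP (-1.22), ACLY (-0.76), INSIG2 (-0.60) and SCAP (-0.43). For ABCG1 the siCHD9 interaction was -3.54 ± 0.68 (SE, adjusted p = 0.000529), with -4.47 without siNSsiNS library 2 and -2.79 without siCHD9siNS library 2. For siBRM, SREBF1 (-1.29) and SCAP (-0.37) were called among synthesis genes, where 21.0% of all genes were (11.3% downward), and STARD4 (-0.69), ABCG1 (-3.11, adjusted p = 0.00173, and -4.05 without siNSsiNS library 2) and MYLIP (-1.25, 0.00294) outside them. EBP, SREBF1, SCAP and INSIG2 for siCHD9, and SREBF1, SCAP and STARD4 for siBRM, lost their calls without at least 1 library, as set out in the closing section.

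The siRNA comparisons were also made among the dex-treated libraries. Against siNSsiNS in dex, 53.6, 18.7, 11.8, 51.5 and 45.5% of all genes were called for siHic5siNS, siCHD9siNS, siBRMsiNS, siCHD9siHic5 and siBRMsiHic5. Of the members called in vehicle (23, 5, 3, 14 and 22), 21, 2, 3, 13 and 19 were called in the same direction in dex. Over all genes 89.2, 49.7, 79.4, 88.3 and 83.2% of the calls in vehicle recurred in dex. Vehicle and dex libraries of 1 number are paired, so this recurrence is not independent. Many calls also rested on single libraries. Of 23, 2, 3, 14 and 21 members called in dex, 12, 2, 1, 9 and 12 kept their call without any single library. With siHic5siNS in dex, those that lost it were FASN, FDPS, HMGCS1, IDI1, NPC2, NR1H2, NR1H3, PMVK, SC5D, SCAP and SREBF1. With siHic5siNS, DHCR7 and STARD4 were called in vehicle and NR1H2 and NR1H3 in dex, and with siCHD9siNS ACLY, NPC2 and SCAP were called in vehicle and not in dex. With the replicate term over all 36 libraries, which called 24.4% of all genes for siCHD9siNS in dex, ACLY (-0.36, adjusted p = 0.0389), NPC2 (0.59, 0.0438) and ABCG1 (-1.29, 0.0443) were called in dex too. In the libraries labelled siCHD9siHic5 this term, which called 56.7% of all genes, added FDPS (0.67, adjusted p = 0.00162) and MYLIP (0.46, 0.0487) above control and EBP, FADS1, FADS2 and ABCA1 below it (-0.59, -0.46, -0.39 and -0.72, adjusted p = 0.00128, 0.0111, 0.0271 and 0.026). For the 3 single conditions the difference between vehicle and dex is tested below as a difference of dex responses, and for the double conditions against siNSsiNS it was not tested.

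In dex, INSIG1 measured 58.0, 44.9 and 62.4 CPM with siNSsiNS and 198, 275 and 304 CPM with siHic5siNS (log2 change 2.23, adjusted p = 2.07e-05). ABCG1 measured 4.29, 3.87 and 3.61 CPM and then 27.8, 34.6 and 19.2 CPM (2.79, adjusted p = 2.15e-05). Both groups were fully apart, and the control ABCG1 libraries lay closer together than in vehicle. MSMO1 was lower with siHic5siNS (-1.71, adjusted p = 1.95e-05) and ABCA1 was not called (-0.09, 0.87). IDI1 was lower with siCHD9siNS (-1.50, adjusted p = 0.000422) and with the libraries labelled siCHD9siHic5 (-1.17, 0.000916). In dex, CHD9 mRNA itself was not called with siCHD9siNS (85.5% of control, adjusted p = 0.411) or siCHD9siHic5 (132%, 0.0668). It was lower with siHic5siNS (71.3%, adjusted p = 0.0245). The siCHD9siNS results in dex thus rest on a label that CHD9 mRNA does not bear out there. PMVK was higher with siBRMsiHic5 (1.61, adjusted p = 6.39e-05) and with siBRMsiNS (1.00, 0.0234), the last lost without siNSsiNS library 1 or 2 or siBRMsiNS library 3 (0.68 to 0.90, 0.132 to 0.198). ABCA1 was lower with siBRMsiHic5 (-2.67, adjusted p = 3.07e-05) and siBRMsiNS (-1.80, 0.00907), the last lost without siNSsiNS library 1 or 2 or siBRMsiNS library 3 (-1.69 to -1.53, 0.0571 to 0.0782). ABCG1 was lower in the libraries labelled siCHD9siHic5 (-1.79, adjusted p = 0.00403), and its call with siBRMsiHic5 (-1.26, 0.0368) was lost without any single one of the 6 libraries (-1.41 to -1.05, 0.0501 to 0.129).

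Counted over the 10 comparisons with siNSsiNS, 5 in vehicle and 5 in dex, 26 of 36 members were called up in at least 1 and 10 down in at least 1, beside 51.4 and 55.1% of all genes. The comparisons of a treatment share their controls. PMVK was called up in 8 and NPC2 in 7, and INSIG1, HMGCS1, MVD, SQLE and SREBF2 in 6 each. Each of these genes lost its call in some of these comparisons when a single library was left out. For PMVK these were siHic5siNS, siBRMsiNS and siCHD9siHic5 in both treatments, and for NPC2 siHic5siNS and siBRMsiHic5 in both. MVD lost its call with siHic5siNS in vehicle, siBRMsiHic5 in dex and siCHD9siHic5 in both. ELOVL6 was called down in 6, and MSMO1 and ABCA1 in 4 each. IDI1, SCAP, ACLY, NR1H2, ABCG1 and MYLIP were called in both directions, with IDI1 up in 4 and down in 4. Of all genes 16.7% were called in both directions. FDFT1, NSDHL, HSD17B7, SCD, FADS1 and FADS2 were called in none, as were 10.1% of all genes.

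Dex itself called 0 members in each of the 6 siRNA conditions by the edgeR fit of group means. The background was low: 0.343, 0.876, 0.949, 0.382, 0.455 and 0.501% of all genes were called with siNSsiNS, siHic5siNS, siCHD9siNS, siBRMsiNS, siCHD9siHic5 and siBRMsiHic5. At an unadjusted p under 0.05, members numbered 0, 1, 1, 1, 0 and 0, NSDHL with siHic5siNS and siBRMsiNS and NR1H2 with siCHD9siNS. Of 15179 genes, 380, 893, 1493, 535, 528 and 645 passed the same unadjusted p in the same order. DESeq2 called NR1H2 with siCHD9siNS (adjusted p = 0.0472) and otherwise 0 members. Over all genes DESeq2 called 66, 210, 283, 86, 91 and 118 in the same order.

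With siNSsiNS, HMGCS1 measured 471, 348 and 585 CPM in vehicle and 457, 371 and 519 CPM in dex (log2 change -0.06 ± 0.26 SE), and INSIG1 48.1, 42.8 and 65.8 CPM and then 58.0, 44.9 and 62.4 CPM (0.08 ± 0.37 SE). SREBF1 measured 60.1, 93.8 and 83.8 CPM and then 56.7, 48.4 and 80.0 CPM (-0.36 ± 0.33 SE). ABCA1 measured 17.1, 7.10 and 7.45 CPM and then 13.8, 11.8 and 5.21 CPM (-0.04 ± 0.40 SE). All of these groups overlapped, and the synthesis median was 0.05 (0.01 over all genes).

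Vehicle and dex libraries of the same number were paired, so the dex response was also fitted with a term for each pair, which called 2.50, 8.93, 24.1, 3.91, 4.74 and 5.95% of all genes in the same order of conditions. With siNSsiNS and siBRMsiNS this fit called 0 members. With siHic5siNS, NSDHL, a sterol dehydrogenase, went from 67.1, 79.1 and 95.0 CPM to 97.6, 114 and 143 CPM, with every dex library above every vehicle library (0.56 ± 0.13 SE, adjusted p = 0.0102). HMGCS1 went from 703, 1032 and 1262 CPM to 617, 735 and 1174 CPM, lower in each pair although the groups overlapped (-0.26 ± 0.07 SE, adjusted p = 0.0253). NSDHL missed the threshold without any 1 of the 3 pairs (0.54 to 0.57, adjusted p = 0.0505 to 0.0609), and HMGCS1 without pair 1 (-0.30, 0.0558) or 2 (-0.15, 0.331). FADS1, the delta-5 desaturase, was called higher in 4 conditions: siHic5siNS (0.17, adjusted p = 0.0225), siCHD9siNS (0.20, 0.00471), the libraries labelled siCHD9siHic5 (0.18, 0.0266) and siBRMsiHic5 (0.23, 0.00506). Each FADS1 call was lost without 1 or 2 of the 3 pairs: siHic5siNS pair 2 or 3 (0.13 and 0.16, adjusted p = 0.211 and 0.116), siCHD9siNS pair 1 (0.19, 0.0532), siCHD9siHic5 pair 1 or 2 (0.13 and 0.19, 0.274 and 0.0949) and siBRMsiHic5 pair 3 (0.20, 0.06). With siBRMsiHic5 FADS1 went from 216, 267 and 313 CPM to 248, 309 and 378 CPM, a rise in each pair within overlapping groups.

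With siCHD9siNS the pair term also called SREBF1 (-0.52, adjusted p = 0.0226), SCAP (-0.16, 0.0127), NPC2 (-0.33, 0.000302), NR1H2 (-0.29, 0.00256) and NR1H3 (-0.41, 0.007), all lower in dex. NPC2 went from 302, 227 and 271 CPM to 215, 195 and 224 CPM, and NR1H2 from 44.8, 44.6 and 40.7 CPM to 32.2, 37.5 and 36.6 CPM. The NR1H2 groups did not overlap, and the NPC2 groups did not either. NPC2 kept its call without any 1 pair. Without pair 1 the others lost theirs (SREBF1 -0.50, adjusted p = 0.135, SCAP -0.16, 0.0862, NR1H2 -0.20, 0.0719, NR1H3 -0.33, 0.106), as did SREBF1 (-0.39, 0.149) and SCAP (-0.15, 0.0743) without pair 2. The 5 differences of dex responses between siRNA conditions called 0 members, where 0 to 0.00659% of all genes were called. At an unadjusted p under 0.05 they held 0, 0, 0, 0 and 1 member, NR1H2 in siBRMsiHic5 minus siHic5siNS, and DESeq2 called 0. Of 15179 genes, 126, 464, 25, 117 and 302 passed that unadjusted p in the edgeR fit of group means. With the pair term, NPC2 differed between siCHD9siNS and siNSsiNS (-0.34 ± 0.07 SE, adjusted p = 0.0212, with 4.03% of all genes called), and that call was lost without siNSsiNS pair 1 or 3 or siCHD9siNS pair 1 (-0.34 to -0.26, 0.0905 to 0.16). In siNSsiNS, NPC2 stayed at 142, 135 and 142 CPM in vehicle and 143, 135 and 143 CPM in dex.

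**Figure D4:**
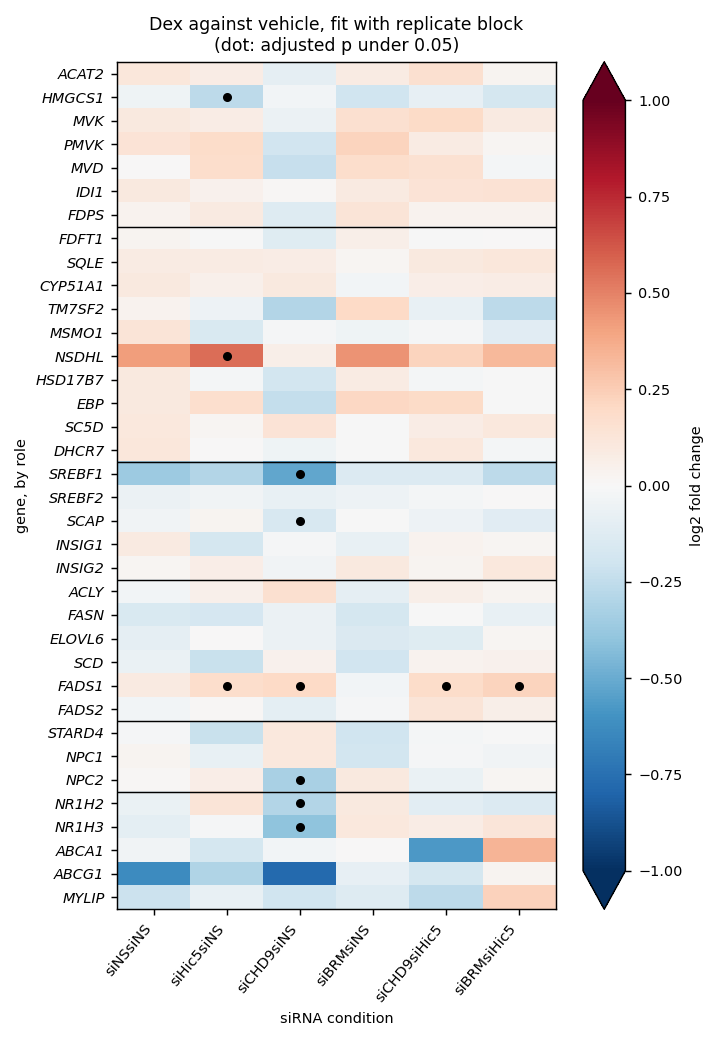
Log2 change from vehicle to dex in the fit with a term for each pair, for 36 members (rows) in 6 siRNA conditions (columns), with dots at an adjusted p under 0.05. Most cells are near 0, FADS1 carries a dot in 4 conditions, and siCHD9siNS, where this fit called 24.1% of all genes, has the most dots.

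Within groups, the synthesis genes varied together from library to library. Over the 36 libraries' deviations from their group means, pairs of synthesis genes had a median Pearson r of 0.70 (quartiles 0.46 and 0.85), and 354 of 378 pairs were positive. The median was 0.90 within the mevalonate arm, 0.79 from squalene to cholesterol, 0.62 among fatty acid genes, 0.39 among SREBP control genes and 0.16 among LXR and efflux genes. FDPS, DHCR7 and HSD17B7 followed the synthesis genes closest (median r 0.89, 0.88 and 0.88), and TM7SF2 and SCAP followed them least (-0.12 and 0.16). ABCA1 and ABCG1 ran the other way (-0.50 and -0.49). These correlations are a description over libraries that share replicate numbers and depth, and carry no test. Over all pairs of the 15179 tested genes the median r was 0.01 (quartiles -0.25 and 0.26), and 50.8% of pairs were positive. HSD17B7 has a pseudogene copy, and no source used here says how shared reads were counted.

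The deviations followed the replicate number. The median synthesis deviation was highest in number 3 in 12 of 12 groups (0.13 to 0.38 on the log2 scale), and ran from -0.49 to -0.02 in number 1 and from -0.31 to 0.11 in number 2. Number 3 libraries also tended to be deeper, with 36.1 to 47.1 M counts against 27.4 to 37.6 M in number 1 and 28.6 to 42.8 M in number 2, ranges that overlap, and some held more 28S RNA. The part of depth or 28S share in these deviations was not tested.

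**Figure D5:**
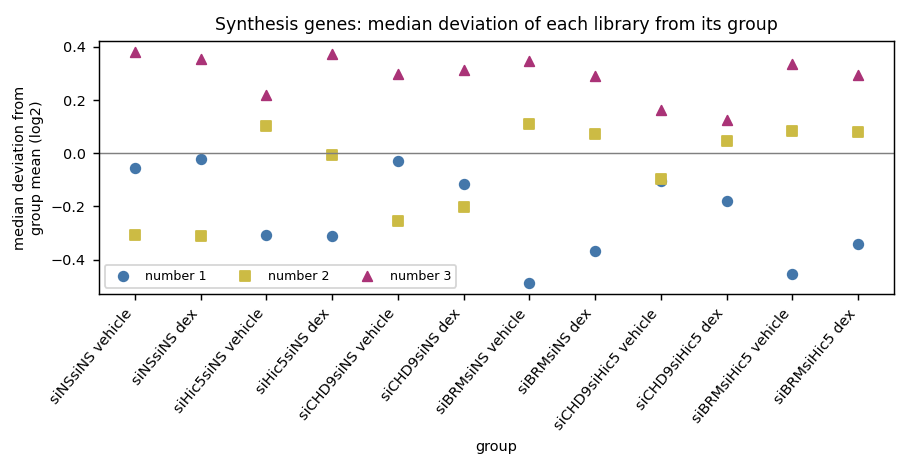
Median deviation of 28 synthesis genes from their group mean (log2 scale) in each of 36 libraries, by replicate number. Number 3 is above 0 in all 12 groups (0.13 to 0.38), and number 1 is below 0 in all 12.

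Other genes of these pathways were followed as lists that exclude the members. Their counts stand beside 53.1, 32.3, 6.45, 52.6 and 48.9% of all genes called with siHic5siNS, siCHD9siNS, siBRMsiNS, siCHD9siHic5 and siBRMsiHic5 in vehicle, and a share near these is not a result about a list. Of 15 other sterol and isoprenoid genes, 8 rose and 2 fell with siHic5siNS in vehicle (median 0.55), and 9 rose and 1 fell with siBRMsiHic5 (0.64). They included MBTPS1, the site-1 protease that cleaves SREBP precursors (1.24, adjusted p = 1.78e-06), and NUS1, a subunit of the dolichol-making enzyme (1.34, 1.98e-08), both higher with siHic5siNS. With siCHD9siNS 4 rose and 1 fell, with siBRMsiNS 2 rose, and in the libraries labelled siCHD9siHic5 6 rose and 2 fell.

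Of 22 other fatty acid genes tested, against the same background shares, 6 rose and 2 fell with siHic5siNS, 5 rose and 2 fell with siCHD9siNS, and 9 rose and 0 fell with siBRMsiHic5. ELOVL5, an elongase of polyunsaturated fatty acids, fell with siCHD9siNS from a mean of 280 to 89.5 CPM (-1.65, adjusted p = 2.88e-10) and in the libraries labelled siCHD9siHic5 to 65.4 CPM (-2.10, 5.48e-13), while with siHic5siNS it rose (0.66). Of 18 other cholesterol handling genes, 8 rose and 2 fell with siHic5siNS, 3 rose and 5 fell in the libraries labelled siCHD9siHic5, and 5 rose and 5 fell with siBRMsiHic5. GRAMD1B, which moves sterol from the plasma membrane to the endoplasmic reticulum, rose from a mean of 8.66 to 49.4 CPM with siHic5siNS (2.51). SOAT1, which esterifies cholesterol, fell with siCHD9siNS (-0.72) and in the libraries labelled siCHD9siHic5 (-1.34). None of these lists held a called gene in any of the 6 dex responses by the edgeR fit of group means.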

How the data were processed

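Counts per gene were deposited by the authors for 36 RNA-seq libraries. Reads were mapped with TopHat2 2.1.1 to GRCh38 and edgeR was used, per the submitters' processing notes. How reads were counted, with which annotation and whether by strand, and the authors' edgeR version were not given in the sources used here, so reads of overlapping antisense genes cannot be told apart. The file is named for upper-quartile normalised CPM but holds whole numbers with unequal totals, so it was treated as raw counts. Columns of other series numbered 0. The RNA28S5 row stayed in library sizes (0.324 to 7.51% of counts).

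The members and lists were chosen with earlier results of these data known. Members were matched by symbol, and other lists by symbol or, through RefSeq, Entrez ID. Genes were named as follows: siRNA targets, members, and up to 4 called genes of each other list with the smallest p. Every member called between siRNA conditions in vehicle by the fit of group means, or in a dex response, was named. Members not called were named by their values. For siRNA conditions compared in dex, and for other calls made only with the replicate term, a part of the called members was named.

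edgeR 4.0.16 in R 4.3.3 fitted 12 group means over 36 libraries (24 residual degrees of freedom) with upper-quartile factors and quasi-likelihood tests. Tests covered the 15179 genes whose scaled CPM passed 1 in 3 libraries or more (7 left out). P-values were adjusted by Benjamini-Hochberg over all genes of a comparison and called under 0.05. There were 25 comparisons, of which the 2 interactions of siRNAs in vehicle were added after the first results. P-values measure the spread between replicates done on different days. No replicate pair was a copy (lowest chi-square per degree of freedom 9.59). The fit was tested on simulated data.

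Pairing by replicate number was checked by correlating deviations from group means. The 18 vehicle and dex pairs gave r of 0.458 to 0.922, and 18 of 18 were closest to their own number, so a fit with a term per pair (12 residual degrees of freedom) is given beside the dex responses. Between siRNA conditions r ran from -0.242 to 0.722, and every pair passed 0.1 in 5 of 12 comparisons, those of siCHD9siNS and siCHD9siHic5 with siNSsiNS in both treatments and of siCHD9siHic5 with siHic5siNS. For comparisons of siRNA conditions the replicate term is an effect of each number, shared by all 36 libraries, and not a term per pair. It spans conditions whose numbers did not pair. Alternatives were TMM factors, no filter, DESeq2 1.42.0, limma 3.58.1 on log2(CPM + 0.5), the replicate block, each library left out (36 refits) and each pair left out (18 refits). Leaving out all libraries numbered 3 was chosen after seeing the data.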

Additional observations from a re-analysis of the deposited data

Results flagged for a closer look

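The siRNAs against CHD9 and BRM were each used with and without siHic5, and for the members below the effects differed between these settings by an interaction test in vehicle (edgeR quasi-likelihood, adjusted over all genes). The same test called 21.3% of all genes for siCHD9 and 21.0% for siBRM, so a call in itself is common and is not particular to the members. Negative values mean that the signed log2 change from the second siRNA was lower with siHic5 than without, not that its size was smaller. The sides share the siNSsiNS and siHic5siNS libraries, and CHD9 mRNA goes against the label siCHD9siHic5.

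For siCHD9 the differences on the log2 scale were -3.54 for ABCG1 (adjusted p = 0.000529), -1.34 for SREBF1 (0.0373), -1.22 for EBP (0.0463), -0.76 for ACLY (0.00821), -0.60 for INSIG2 (0.022) and -0.43 for SCAP (0.0184). ABCG1 and ACLY kept their calls without any 1 library, with ABCG1 at -4.47 without siNSsiNS library 2 and -2.79 without siCHD9siNS library 2. EBP lost its call without siNSsiNS library 1 or 2, siCHD9siNS 1 or 3, siCHD9siHic5 1 or 2, or siHic5siNS 2 or 3 (-1.27 to -0.99, adjusted p = 0.0635 to 0.131). SREBF1 lost it without siNSsiNS 1, siCHD9siHic5 1 or 2, siHic5siNS 2, or siCHD9siNS 2 or 3 (-1.35 to -0.89, 0.0521 to 0.171). INSIG2 lost it without siCHD9siNS 1, siNSsiNS 2 or siCHD9siHic5 2 (-0.55 to -0.53, 0.059 to 0.061), and SCAP without siHic5siNS 2 (-0.36, 0.0612).

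For siBRM the differences were -3.11 for ABCG1 (adjusted p = 0.00173), -1.25 for MYLIP (0.00294), -1.29 for SREBF1 (0.0451), -0.69 for STARD4 (0.0459) and -0.37 for SCAP (0.0392). ABCG1 and MYLIP kept their calls without any 1 library, with ABCG1 at -4.05 without siNSsiNS library 2. SREBF1 lost its call without siNSsiNS 1 or 3, siBRMsiHic5 1 or 2, siHic5siNS 2 or siBRMsiNS 3 (-1.33 to -0.84, adjusted p = 0.0637 to 0.205). STARD4 lost it without siNSsiNS 1 or 2, siBRMsiHic5 1 or 2, siHic5siNS 2 or 3, or siBRMsiNS 3 (-0.69 to -0.50, 0.0621 to 0.167). SCAP lost it without siNSsiNS 1 or 2, siHic5siNS 1 or 2, siBRMsiHic5 1 or 3, or siBRMsiNS 2 (-0.37 to -0.30, 0.0608 to 0.12).

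The dex response of NPC2 differed between siCHD9siNS and siNSsiNS by -0.34 on the log2 scale in the fit with a term for each pair (adjusted p = 0.0212), and the call was lost without siNSsiNS pair 1 or 3 or siCHD9siNS pair 1.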

How the results depend on the processing

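Counts of called synthesis genes stayed within 1.5 times of those reported in 25 of 25 comparisons with TMM factors and with no filter on low counts, in 24 of 25 with DESeq2 and with limma, and in 16 of 25 with the replicate block. The largest shift of the median of all genes by scaling was 0.0674 on the log2 scale. Depth limits small changes of low members such as ABCG1 and ABCA1.

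With the replicate block the counts of called synthesis genes for dex were 3 with siHic5siNS, 3 with siCHD9siNS, 1 with siCHD9siHic5 and 1 with siBRMsiHic5, against 0. They were 16 for siCHD9siHic5 against siNSsiNS in vehicle (10 without the block), 2 for siCHD9siNS in dex (1, and 2 by DESeq2), 2 for siBRMsiNS in dex (1), 10 for the siCHD9 interaction (5) and 6 for the siBRM interaction (2, and 1 by limma). The block called 8.93, 24.1, 4.74 and 5.95% of all genes in those dex responses. It called 57.3% for siCHD9siHic5 in vehicle and 24.4% for siCHD9siNS in dex. The shares for siBRMsiNS in dex and for the interactions are not given here, so their counts are not a result about synthesis genes. Where the numbers did not pair the libraries, the counts with the block describe a shared number only. Between siRNA conditions 21 of 36 pairs, taken over 12 comparisons that reuse libraries, were closest to their own number. The sign of the FADS1 dex change, called only with the pair term, turned to -0.051 with siCHD9siNS and to -0.038 with siCHD9siHic5 when dex replicate 3 of that condition was left out of the fit of group means.

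Leaving out 1 library kept 168 of 192 counts within that bound. The counts that moved ran from 0 to 4 (siBRM interaction), 2 to 7 (siCHD9 interaction), 0 to 1 (siBRMsiNS, in vehicle and in dex), 6 to 12 (siCHD9siHic5 in dex), 5 to 13 (siCHD9siHic5 in vehicle) and 1 to 2 (siCHD9siNS in dex), where the highest siCHD9 interaction and siCHD9siHic5 vehicle counts leave out all libraries numbered 3. With the pair term and a pair left out, the dex counts ran from 0 to 3 (siHic5siNS and siCHD9siNS) and from 0 to 1 (siCHD9siHic5 and siBRMsiNS), and the FADS1 change without 1 library from -0.051 to 0.47 (siCHD9siNS) and -0.038 to 0.44 (siCHD9siHic5).

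Medians of the synthesis genes stayed within the replicate spread in 140 of 192 cases of 1 library left out. For dex they ran from -0.15 to 0.28 with siNSsiNS, -0.13 to 0.17 with siHic5siNS, -0.21 to 0.12 with siCHD9siNS, -0.16 to 0.22 with siBRMsiNS and -0.20 to 0.23 with siBRMsiHic5. For the dex difference from siNSsiNS they ran from -0.22 to 0.20 (siHic5siNS), -0.27 to 0.10 (siCHD9siNS) and -0.26 to 0.17 (siBRMsiNS, -0.084 to 0.023 with the pair term), and from -0.18 to 0.18 for siBRMsiHic5 minus siHic5siNS. They ran from -0.14 to 0.18 for siCHD9siNS in vehicle, -0.23 to 0.073 in dex, -0.17 to 0.25 for siBRMsiHic5 against siHic5siNS and -0.60 to -0.26 for the siCHD9 interaction. The cause of these shifts was not tested.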
